A study of Mus musculus with 4 samples.

Results

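The genes described here encode the machinery that cuts the 3' ends of RNA polymerase II transcripts: the subunits of cleavage and polyadenylation, the factors of histone mRNA 3' ends, and the Integrator complex. The list names 34 genes, and the rows were taken by gene symbol from the authors' deposited table, which gave 33 of its 22396 named genes. Symplk, the scaffold shared by both kinds of mRNA cleavage, was not analysed here. All 33 carried an adjusted p-value in the authors' deposited table, so none was lost to a filter on low counts.

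Most mRNAs end by cleavage at a polyadenylation signal. The cleavage and polyadenylation specificity factor CPSF reads the signal and carries the endonuclease, the cleavage stimulation factor CstF binds the downstream element, the cleavage factors CFIm and CFIIm help to choose and finish the site, and poly(A) polymerase adds the tail. Replication-dependent histone mRNAs carry a stem-loop in place of a tail and use their own binding protein and a dedicated small ribonucleoprotein beside the CPSF endonuclease. Integrator holds a related endonuclease, cuts the 3' ends of small nuclear RNAs and ends transcription early at many protein-coding genes. Small nuclear RNAs are also the cargo of the SMN complex, to which DDX20 belongs.

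Ribosome-protected fragments were sequenced from mouse testis cells that carry the surface marker THY1, in 2 control samples of genotype "control" and 2 samples of genotype "Ddx20 knockout", the controls being littermates. Age, strain and the means of deletion are not known from the labels, nor whether a group's samples are from different animals, so p-values measure the spread between these samples, which may be technical. Low-input material of about 1000 cells a sample was used, and no matched RNA measurement was used here, so fewer cells of a type, less RNA per cell and less ribosome occupancy per RNA cannot be told apart. The authors' deposited table holds 1 comparison with no column per sample, but whole reads in 4 libraries could be recovered from its means: 941014 in library A, 789570 in B, 282722 in C and 221439 in D. Libraries A and B form one side of the authors' comparison and C and D the other. Which of them holds the knockout is not stated, so no library is tied to a genotype here. "Fell" below means lower in C and D with an adjusted p below 0.05, "rose" means higher there, and every direction is reversed under the opposite reading of the sides. Levels are normalized counts, meaning reads divided by the authors' size factors. They serve to compare libraries, not genes, since coding lengths were not used here. Ddx20 had normalized counts of 167 in library A, 173 in B, 42.6 in C and 50.8 in D.

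The libraries of the 2 sides differed broadly, and these facts stand beside every result below. A chi-square test of counts over 8678 genes found no difference between A and B beyond sampling noise (0.968 per degree of freedom, p = 0.983). They may thus be one library deposited as a pair, and a fit that sums them into 1 sample is given below. The same chi-square test over 7328 genes did separate C from D (1.11 per degree of freedom, p = 3.34e-10). Libraries C and D had reads on more genes (19374 and 19158) than the deeper A and B (14406 and 14049). Of 8 germ cell markers 7 fell and 0 rose, and their summed normalized count was 2054 in A, 2196 in B, 320 in C and 328 in D, with none of the 8 at 0 on either side. All 6 markers of undifferentiated spermatogonia fell, with a median log2 fold change of -1.55 in the authors' deposited table. They summed to 812 normalized counts in A, 808 in B, 341 in C and 303 in D. The 5 peritubular myoid markers summed to 81.5, 74.2, 193 and 195 in the same order (3 rose), the 6 macrophage markers to 73.9, 85.6, 125 and 146 (3 rose, 1 fell), the 7 Sertoli markers to 107, 101, 80.0 and 89.7 (1 rose, 1 fell), the 6 Leydig markers to 27.9, 25.5, 49.3 and 59.2, and the 5 endothelial markers to 68.1, 60.8, 81.3 and 84.6 (1 rose). The 4 T cell markers summed to between 6.98 and 26.7 normalized counts. Of the 5 red blood cell markers, 2 had no read in A and B and another pair none in C and D. What part these differences have in the results on the 3' end genes was not tested.

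Most genes of the 3' end machinery were read less in libraries C and D. By the authors' deposited table, 26 of the 33 fell while 0 rose, beside a background in which 18.8% of all 17347 tested genes fell, 26.9% rose and 45.7% passed in either direction. The median log2 fold change of the 33 was -1.37 in the authors' deposited table, against 0.38 for all tested genes. Direction in this table goes with the mean level, so tested genes were also put in 4 classes of equal size by mean, and each class served as a closer background. The highest class, with means from 27.2 normalized counts, holds 26 of the 33. There 24 of 26 fell (median -1.56 by the authors' deposited table) and 0 rose, while of all 4337 genes of the class 61.2% fell (median -1.05) and 11.7% rose. The next class holds 5 of the genes, of which Cpsf4 and Ints12 fell and 0 rose, where 13.3% of the class fell and 28.7% rose. Lsm10 lies in the class below that, where 0.623% fell and 44.6% rose, and Nudt21 in the lowest, where 0% fell and 22.5% rose. The normalized counts of 27 genes did not overlap between the sides with C and D lower, which 30.8% of all tested genes showed and 74.5% of the highest class. They did not overlap with C and D higher for 2 genes, Lsm11 and Nudt21, against 53.9% of all tested genes. All 26 that fell are among the 27. Of the 26, 21 were at least 2-fold lower by mean normalized count and 8 at least 4-fold lower. The share of all tested genes past these folds was not counted, and the median of the highest class was itself -1.05. By the authors' deposited table the median was -1.57 over the 22 genes of mRNA 3' ends and -1.15 over the 11 of Integrator, a difference that was not tested.

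The counts were much the same when the recovered reads were fitted with limma, beside larger backgrounds. Of the 32 genes with at least 10 reads, 27 fell and 0 rose with the authors' size factors (28.8% and 40.9% of 14470 genes), with TMM factors (29.4% and 40.2%), with median-of-ratios factors (27.7% and 41.7%) and with A and B summed (27.3% and 39.5%). With upper-quartile factors 23 fell (20.6%) and 2 rose (48.5%), and with library totals 22 fell (18.9%) and 2 rose (50.2%), the 2 being Ints1 and Lsm11. Over genes with at least 50 reads 27 of 30 fell (51.7%) and 0 rose (19.9%), and over those with any read 27 of 33 fell (20.2%) and 1, Nudt21, rose (54.9%). Without library A 25 fell (26.8%), without B 27 (27.2%), without C 24 (24.7%) and without D 27 (26.7%). None rose in those 4 fits, where 36.1%, 36.7%, 28.1% and 29.5% of the genes did. At an adjusted p below 0.01, the authors' deposited table has 23 of the 33 lower, against 15.2% of tested genes. All backgrounds of this paragraph are over every gene of the fit or table. Shares within the class of highest means, the closer background, were not counted for them.

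**Figure D1:**
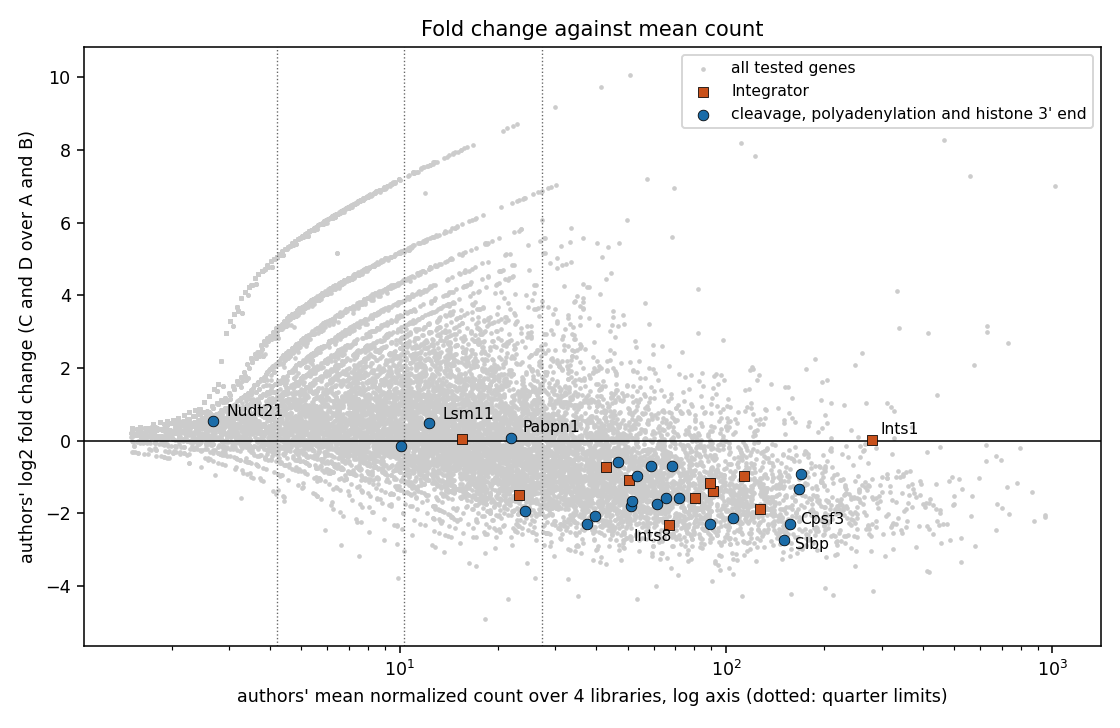
Authors' log2 fold change (vertical axis, C and D over A and B) against the authors' mean normalized count (horizontal log axis) for all tested genes (grey), Integrator genes (orange squares) and the other 3' end genes (blue circles). Dotted lines mark the limits between the 4 classes of mean level, and most of the coloured points lie in the right-hand class below 0, with Ints1 at 0.03 on the far right.

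All 6 genes of CPSF fell. In the class of highest means, which holds all of them but Cpsf4, 61.2% of all genes fell. The largest fall was that of Cpsf3, which encodes the endonuclease itself and lies on chr12:21286273-21315056 of GRCm38. Its normalized count was 268 in library A, 254 in B, 52.0 in C and 52.5 in D, and the authors' deposited table gives it a log2 fold change of -2.29 with a standard error of 0.221 and an adjusted p of 6.44e-24 (Benjamini-Hochberg). The values of C and D nearly coincided, and were 4.99-fold lower than A and B by the means. Fip1l1, which tethers poly(A) polymerase to CPSF, had normalized counts of 183, 161, 42.6 and 33.8 in A to D (-2.11 in the authors' deposited table, adjusted p = 3.71e-15). Cpsf4, a zinc finger subunit that touches the polyadenylation signal, was at 44.8, 33.9, 8.0 and 10.2 (-1.94 in the authors' deposited table, adjusted p = 0.000621), on 6 reads each in C and D. Its wide standard error of 0.551 goes with those few reads. Cpsf2, an inactive relative of the endonuclease, had 91.3, 107, 32.0 and 32.2 normalized counts (-1.56 in the authors' deposited table, adjusted p = 9.26e-07). Wdr33, the WD40 protein that binds the signal with Cpsf4, stood at 241, 243, 93.3 and 94.8 (-1.34 in the authors' deposited table, adjusted p = 5.82e-12). The smallest fall belonged to Cpsf1, the large scaffold subunit, with 226, 223, 129 and 102 normalized counts (-0.93 in the authors' deposited table, adjusted p = 1.64e-06). No value of C or D reached one of A or B in any of the 6.

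Shares of reads compare the subunits of CPSF free of the scaling between libraries, and are given in full for the subunits with the largest and the smallest fold change, Cpsf3 and Cpsf1. Cpsf3 took 25.4% of all CPSF reads in library A (95% Wilson interval 23.4 to 27.5) and 24.9% in B (22.7 to 27.2), against 14.6% in C (10.8 to 19.3) and 16.1% in D (11.6 to 22.0). Cpsf1 took 21.4% in A (19.6 to 23.4) and 21.8% in B (19.8 to 24.0), against 36.2% in C (30.7 to 42.1) and 31.2% in D (25.1 to 38.1). The intervals of the sides do not meet for either gene, they cover counting error only, and 2 libraries a side allow no exact permutation test below the 0.05 threshold. Both genes were picked by fold change in the same reads, which sets the direction of their shares, so the shares are no separate support. For Cpsf2, Cpsf4 and Wdr33 the intervals of the sides meet, and for Fip1l1 that of C (8.59 to 16.4) meets those of A (15.7 to 19.2) and B (14.0 to 17.8), while that of D (6.84 to 15.5) meets B but not A. Shares of one complex sum to a whole, so a rise of one subunit's share lowers the others.

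CstF, which binds the GU-rich element downstream of the cut, also fell in all 4 genes. All lie in the class of highest means, of which 61.2% fell. Cstf3, the subunit that bridges the others, had normalized counts of 139.6 in library A, 157 in B, 20.0 in C and 40.6 in D, and a log2 fold change of -2.28 (standard error 0.295, adjusted p = 7.03e-14) by the authors' deposited table. Library C held 15 reads of it and library D 24, so the low side is thinly covered. Cstf1, the WD40 subunit, was at 78, 82.7, 17.3 and 27.1 normalized counts (-1.80 in the authors' deposited table, adjusted p = 1.42e-06). The RNA-binding subunit has an X-linked gene, Cstf2, and an intronless autosomal copy, Cstf2t, which is known in mouse for its role in male germ cells. Cstf2 was at 85.5, 72.8, 22.7 and 25.4 normalized counts (-1.65 in the authors' deposited table, adjusted p = 6.01e-06). Cstf2t was at 105, 114, 38.7 and 30.5 (-1.59 in the authors' deposited table, adjusted p = 1.56e-07). Cstf2 made up 45.0%, 39.0%, 37.0% and 45.5% of the reads of the pair in A to D, and the widest interval, that of D, ran from 29.8% to 62.0%. A shift between the copies was not detectable at this depth. The copies are similar in sequence, so the authors' counting could have split reads between them, and Cstf2t lies within the span of Prkg1.

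The cleavage factors were less uniform. All of them but Nudt21 lie in the class of highest means, of which 61.2% fell and the median log2 fold change was -1.05. In CFIm, which sets the choice between alternative sites, Cpsf6 had 93.7, 75.7, 49.3 and 54.1 normalized counts (-0.68 in the authors' deposited table, adjusted p = 0.0220) and its alternative partner Cpsf7 65.2, 79.2, 44.0 and 25.4 (-0.96 in the authors' deposited table, adjusted p = 0.00522). Both fell, by less than the median of that class, yet neither call held with limma on library totals (adjusted p = 0.529 for Cpsf6 and 0.0975 for Cpsf7). Cpsf6 also missed with limma on upper-quartile factors (adjusted p = 0.292) and without library A (0.0978). Nudt21, the small subunit that binds UGUA, had 1, 2, 4 and 2 reads in the 4 libraries, too few for a fold to be given (adjusted p = 0.328 in the authors' deposited table). In CFIIm, Clp1, an RNA kinase, had 59.9, 66.5, 13.3 and 10.2 normalized counts (-2.28 in the authors' deposited table, adjusted p = 1.44e-06). Its partner Pcf11, which also dismantles the polymerase at the end of genes, did not pass, with 65.2, 48.1, 29.3 and 44.0 (-0.60 in the authors' deposited table, adjusted p = 0.0977). With limma, Pcf11 passed on the same reads and size factors (-0.67, adjusted p = 0.0167) but missed in 4 of 12 settings: library totals (adjusted p = 0.712), upper-quartile factors (0.471), without library A (0.271) and without library C (0.291). All 4 values of Pcf11 still kept C and D below A and B, with library D close under library B.

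Both canonical nuclear poly(A) polymerases fell, as did 61.2% of the class of highest means, in which both lie. Papola was at 101 normalized counts in library A, 90.5 in B, 29.3 in C and 25.4 in D (-1.73 in the authors' deposited table, adjusted p = 2.03e-07). Papolg was at 60.5, 69.3, 12 and 16.9 (-2.07 in the authors' deposited table, adjusted p = 3.26e-06). Papola made up 62.6%, 56.6%, 71.0% and 60% of the reads of the pair in A to D, with intervals that all overlap. Pabpn1, which coats the growing tail in the nucleus, overlapped between the sides at 25.6, 17, 26.7 and 18.6 normalized counts (0.08, standard error 0.438, adjusted p = 0.882 in the authors' deposited table). It rests on 99 reads in all, and the interval of 1 standard error spans changes in either direction.

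**Figure D2:**
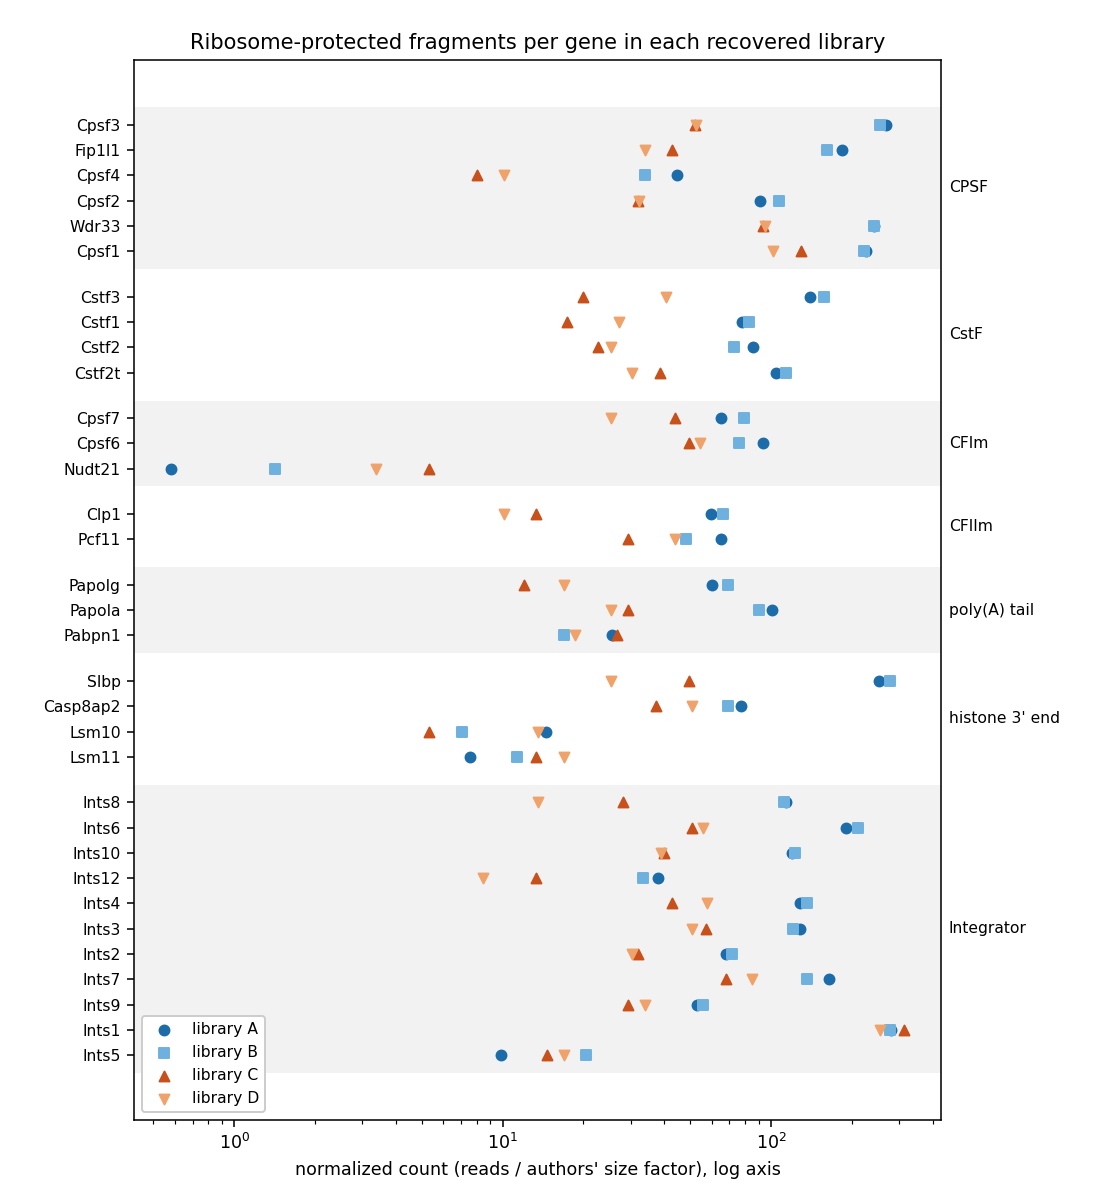
Normalized count (horizontal log axis) of each gene in libraries A and B (blue) and C and D (orange), grouped by complex and ordered within it by fold change. The blue and orange points are apart for all CPSF and CstF genes and mixed for Pabpn1, Lsm10, Ints1 and Ints5.

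The factors of histone mRNA 3' ends split. Slbp and Casp8ap2 lie in the class of highest means, of which 61.2% fell and the median log2 fold change was -1.05. Slbp, the stem-loop binding protein needed to process and translate replication-dependent histone mRNAs, had the lowest log2 fold change of the 33 genes in the authors' deposited table. That rank rests on library D: with limma without it, Slbp was at -2.40 and Cstf3 at -2.84. On chr5:33640055-33652574 of GRCm38, it had normalized counts of 252 in library A, 276 in B, 49.3 in C and 25.4 in D, from 433, 391, 37 and 15 reads. Its log2 fold change was -2.73 (standard error 0.337, adjusted p = 3.48e-15) in the authors' deposited table, 7.07-fold lower by the means. Slbp took 11.0% of the reads of the mRNA 3' end genes in library A (10.1 to 12) and 12.2% in B (11.1 to 13.4), against 6.40% in C (4.68 to 8.70) and 3.37% in D (2.05 to 5.49). The intervals of the sides do not meet, which compares Slbp with the pooled reads of the group and not with each of its genes. Slbp was singled out by its fold change in the same reads, so this share is no separate support. Casp8ap2, also called FLASH, which bridges the histone cleavage complex, had 77.4, 69.3, 37.3 and 50.8 normalized counts (-0.71 in the authors' deposited table, adjusted p = 0.0260). That call missed with limma on library totals (adjusted p = 0.416), on upper-quartile factors (0.226) and without library C (0.0750). Lsm10 and Lsm11, the Sm-like proteins particular to the histone-processing ribonucleoprotein, did not pass. Lsm10 was at 14.5, 7.07, 5.33 and 13.5 (-0.15 in the authors' deposited table, adjusted p = 0.809). Lsm11 was at 7.56, 11.3, 13.3 and 16.9 (0.50 in the authors' deposited table, adjusted p = 0.384). Lsm11 was higher in both C and D than in A and B, on 10 reads in each, and it rose with limma on library totals (1.28, adjusted p = 0.00564) but not on the authors' size factors (0.73, adjusted p = 0.108).

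Of the 11 Integrator genes 9 fell, beside 18.8% of all tested genes. In the class of highest means, which holds all of the 11 but Ints5 and Ints12, 61.2% of all genes fell. Ints8, which helps to dock protein phosphatase on the complex, had normalized counts of 113 in library A, 112 in B, 28.0 in C and 13.5 in D, from 195, 158, 21 and 8 reads (-2.32, standard error 0.338, adjusted p = 3.93e-11 in the authors' deposited table). Ints6, of the same phosphatase module, was at 189.7, 211, 50.6 and 55.8 (-1.88 in the authors' deposited table, adjusted p = 1.97e-15). Ints10 was at 119.9, 122, 40.0 and 38.9 (-1.57 in the authors' deposited table, adjusted p = 3.47e-08). These 3 were more than 3-fold lower in C and D by the means, as was the PHD finger subunit Ints12 at 37.8, 33.2, 13.3 and 8.46 (-1.49 in the authors' deposited table, adjusted p = 0.00527).

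The subunits of the cleavage module and the backbone are given next, with no test of their difference from the other subunits. Ints4, the scaffold of the endonuclease module, had 129, 136, 42.6 and 57.5 normalized counts (-1.37 in the authors' deposited table, adjusted p = 1.93e-07). Ints9, the inactive partner of the endonuclease, had 52.9, 55.9, 29.3 and 33.8 (-0.73 in the authors' deposited table, adjusted p = 0.0474), the closest to the threshold among those that fell. Its call missed with limma on library totals (adjusted p = 0.451), on upper-quartile factors (0.275) and without library C (0.0720). Among backbone subunits, Ints2 had 68.1, 71.4, 32.0 and 30.5 normalized counts (-1.09 in the authors' deposited table, adjusted p = 0.00172) and Ints7 165, 136, 68.0 and 84.6 (-0.97 in the authors' deposited table, adjusted p = 4.60e-05). Ints3, which also serves in a single-stranded DNA binding complex, had 128, 120.2, 57.3 and 50.8 (-1.15 in the authors' deposited table, adjusted p = 9.97e-06).

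Ints1, the largest backbone subunit, stood apart. On chr5:139751282-139775702 of GRCm38, it had normalized counts of 280.4 in library A, 276 in B, 313 in C and 254 in D, from 482, 391, 235 and 150 reads. The value of C lay above and that of D below both A and B. Its log2 fold change was 0.03 (standard error 0.142, adjusted p = 0.857) in the authors' deposited table, the smallest standard error of the 33 genes. The direction depended on the scaling: limma gave -0.01 with TMM factors (adjusted p = 0.969) and 0.59 with library totals (adjusted p = 9.17e-06), a call that Ints1 had risen. Shares of reads do not use the scaling, though they come from the same reads by which Ints1 was singled out. Ints1 took 21.7% of Integrator reads in library A (20.0 to 23.4) and 21.3% in B (19.5 to 23.3), against 45.5% in C (41.2 to 49.8) and 39.4% in D (34.6 to 44.4). Integrator without Ints1 took 0.185% of all reads in A (0.177 to 0.194), 0.183% in B (0.173 to 0.192), 0.0997% in C (0.0888 to 0.112) and 0.104% in D (0.0917 to 0.119). Ints1 alone took 0.0512% of all reads in A, 0.0495% in B, 0.0831% in C and 0.0677% in D. Ints5, a subunit that sits with Ints8, also overlapped between the sides, with 9.89, 20.5, 14.7 and 16.9 normalized counts from 67 reads (0.05, standard error 0.519, adjusted p = 0.937 in the authors' deposited table).

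Among the 10 Integrator genes other than Ints1, the mix of reads also differed at some subunits. Ints8 took 11.2% in A (9.80 to 12.8), 11.0% in B (9.45 to 12.7), 7.45% in C (4.92 to 11.1) and 3.46% in D (1.77 to 6.68). Library D lies below both A and B, whereas the interval of C meets theirs. Ints6 went from 18.7% in A and 20.7% in B to 13.5% in C (9.98 to 18.0) and 14.3% in D (10.4 to 19.4). The interval of D meets those of A and B, and that of C meets A (from 17) but not B (from 18.7). Ints7 took 13.4% in B (11.7 to 15.2) and 21.6% in D (16.8 to 27.4), with A and C between. Ints5 took 0.976% in A (0.611 to 1.56), 2.01% in B (1.40 to 2.88), 3.90% in C (2.19 to 6.85) and 4.33% in D (2.37 to 7.78), so C and D lie above A, while both meet B. The shares of Ints2, Ints3, Ints4, Ints9, Ints10 and Ints12 had overlapping intervals in all 4 libraries.

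**Figure D3:**
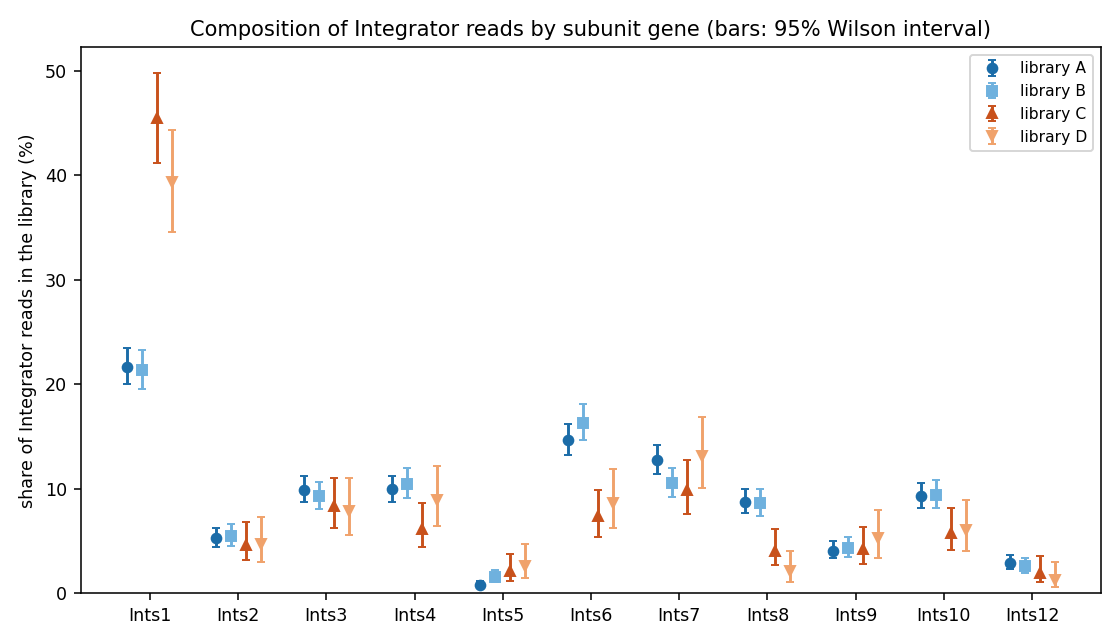
Share of each library's Integrator reads (vertical axis, percent) taken by each subunit gene, with 95% Wilson intervals that cover counting error only. Ints1 takes 21.3% and 21.7% in the blue libraries and 39.4% and 45.5% in the orange ones.

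The fold changes of all 33 genes ranged from -2.73 for Slbp to 0.54 for Nudt21 in the authors' deposited table. As a group the genes took 0.654% of all reads in library A (0.637 to 0.670) and 0.637% in B (0.619 to 0.654), against 0.387% in C (0.365 to 0.411) and 0.373% in D (0.348 to 0.399). These shares need no size factors, and the intervals of the sides do not meet. The intervals cover counting error only. The group share comes from the same reads as the fold changes, so it is no separate support. Shares of other genes in the class of highest means were not counted.

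**Figure D4:**
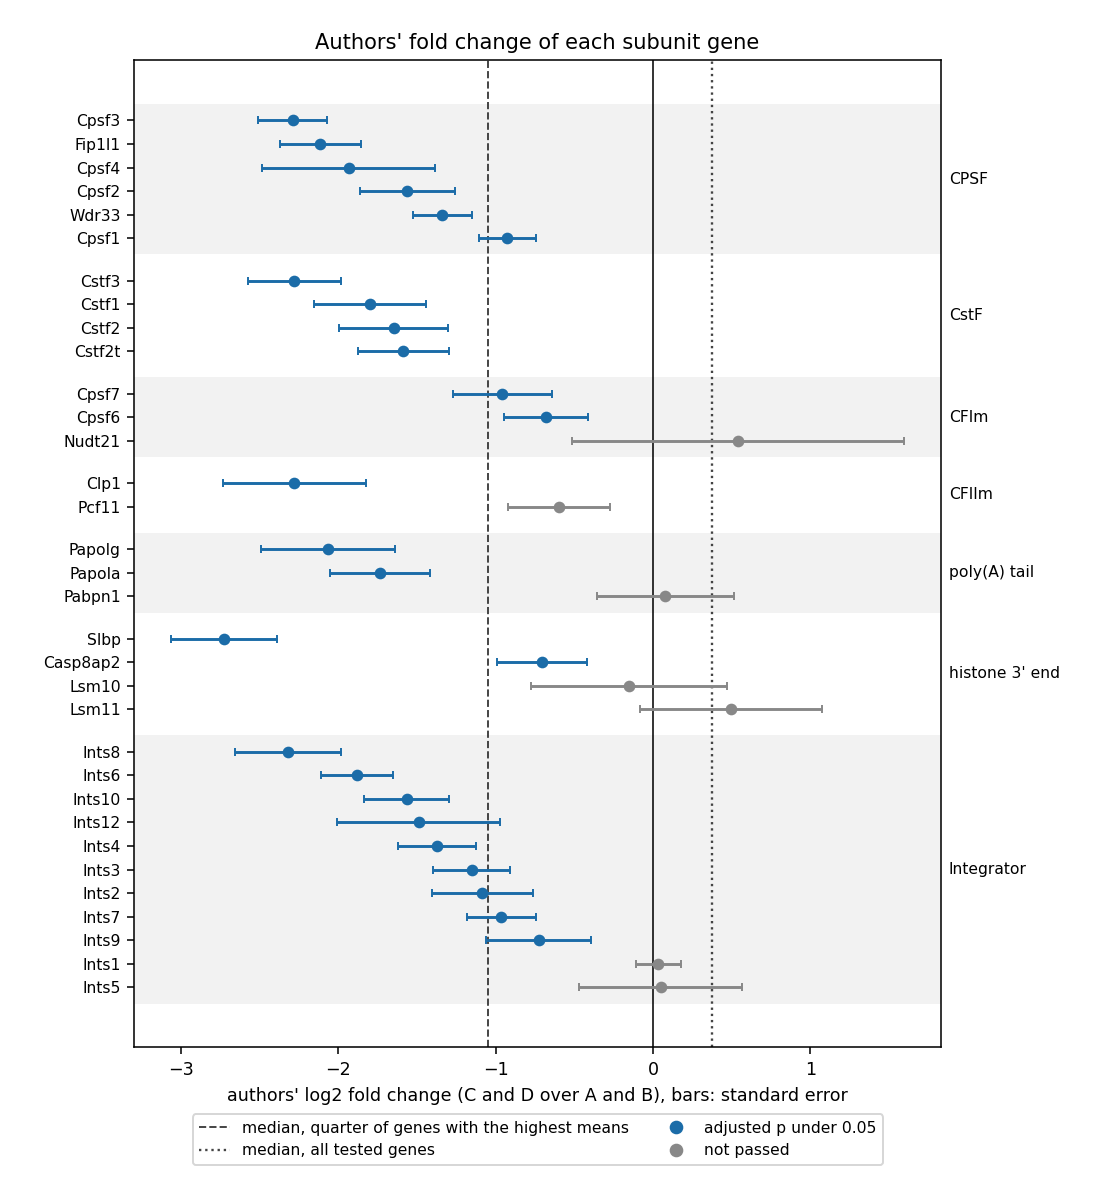
Authors' log2 fold change of each gene with its standard error, grouped by complex, with genes past the adjusted threshold in blue and the others in grey. The dashed line marks the median of the class of highest means (-1.05) and the dotted line that of all tested genes (0.38).

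Other genes of the same pathways were read from lists written out with earlier results of these data known. By the authors' deposited table, 17 of 28 further genes of 3' end processing and termination fell while 1 rose (median -1.28). Those with the smallest p were Xrn2, the exonuclease that ends transcription by degrading the RNA left after the cut (516.7, 519.7, 88.0 and 84.6 normalized counts, -2.57 in the authors' deposited table), the phosphatase subunits Ppp1cb (-2.43) and Ppp1ca (-1.82), and Ctr9 of the PAF complex (-1.94). The 1 that rose, named after its value was seen, was Pabpc1, the cytoplasmic poly(A)-binding protein (0.46 in the authors' deposited table, adjusted p = 0.0382). By the authors' deposited table, 10 of 15 further Integrator genes and partners fell while 0 rose (median -1.23). They included Ints11, the Integrator endonuclease, at 83.8, 93.3, 33.3 and 25.4 normalized counts (-1.51 in the authors' deposited table, adjusted p = 6.47e-06), the elongation factor Supt5 (-1.08), Nelfcd (-1.69) and the phosphatase scaffold Ppp2r1a (-1.30). Beside them, 18.8% of all tested genes fell, and 61.2% of the class of highest means. Both lists also hold genes with means below that class, such as Pabpc4 (3.44 normalized counts) and Inip (7.42). Of the next class 13.3% fell, so the 61.2% is no matched background for a whole list. The lists were not split by class.

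The promoters of the genes are described as sequence, and a link to the fold changes was not tested. RefSeq promoters of GRCm38.p6, from 250 bases before to 50 after the annotated start, were matched by symbol for 27 of the 33. A match describes letters and says nothing of binding. The E2F letters TTTCCCGC, TTTGGCGC, TTTCGCGC or TTTGCCGC, on either strand, were in 3 of 27 promoters (Casp8ap2, Cstf2t and Ints7) and in 3.49% of the promoters of tested genes. The ETS letters CCGGAAG were in 7 of 27 against 14.2%, the CCAAT box (CCAAT) in 15 against 38.4%, the GC box (GGGCGG) in 18 against 55.8%, the NRF1 palindrome in 2 against 1.62%, and the CHR letters TTTGAA in 6 against 13.5%. The TATA box letters TATAAA were in 0 of 27 against 9.85%. All these background shares are over the promoters of tested genes, and shares within the class of highest means were not counted. Among the 21 promoters of genes that fell, 11 held CCAAT, and among the other 6, 4 did. The median GC content was 62.3% over the 27 and 59.0% over 13620 tested genes, and 62.3% over the 3515 of the highest class. Across the 27 genes, GC content and the fold change of the authors' deposited table had Pearson's r of -0.19 and Spearman's rho of -0.19, a description over genes that share the same 4 libraries. Promoters of the 3 genes with the largest falls among histone factors, CPSF and CstF are printed 5' to 3', with that of Ints1, which did not fall. Capitals mark every match to these letters on either strand.
Slbp, chr5:33652525-33652824, minus strand: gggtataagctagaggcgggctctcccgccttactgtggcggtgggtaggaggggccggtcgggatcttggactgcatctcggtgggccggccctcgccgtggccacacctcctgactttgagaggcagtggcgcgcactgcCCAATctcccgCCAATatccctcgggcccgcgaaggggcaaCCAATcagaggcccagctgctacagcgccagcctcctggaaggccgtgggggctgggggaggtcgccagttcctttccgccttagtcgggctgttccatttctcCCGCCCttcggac
Cpsf3, chr12:21286047-21286346, plus strand: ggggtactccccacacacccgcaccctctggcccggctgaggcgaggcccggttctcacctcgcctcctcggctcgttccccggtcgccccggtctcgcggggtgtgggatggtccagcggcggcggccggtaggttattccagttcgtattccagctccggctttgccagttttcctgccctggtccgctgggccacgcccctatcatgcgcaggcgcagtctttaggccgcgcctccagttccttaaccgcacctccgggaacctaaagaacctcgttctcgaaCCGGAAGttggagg
Cstf3, chr2:104590234-104590533, plus strand: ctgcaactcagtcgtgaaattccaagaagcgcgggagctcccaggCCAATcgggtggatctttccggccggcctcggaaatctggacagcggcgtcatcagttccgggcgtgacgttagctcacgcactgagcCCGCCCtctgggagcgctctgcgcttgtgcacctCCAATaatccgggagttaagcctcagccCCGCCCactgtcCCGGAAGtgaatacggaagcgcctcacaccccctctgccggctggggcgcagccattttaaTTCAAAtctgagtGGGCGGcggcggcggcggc
Ints1, chr5:139775629-139775928, minus strand: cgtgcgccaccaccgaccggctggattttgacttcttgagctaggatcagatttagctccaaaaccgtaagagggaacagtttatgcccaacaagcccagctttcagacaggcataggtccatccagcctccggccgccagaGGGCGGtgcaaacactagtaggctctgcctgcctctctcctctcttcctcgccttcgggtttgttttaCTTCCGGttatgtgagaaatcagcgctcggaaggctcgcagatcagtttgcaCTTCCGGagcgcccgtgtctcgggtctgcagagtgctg
Slbp has 3 copies of CCAAT in this window and 1 GC box, Cpsf3 a single ETS match, Cstf3 matches to 4 of the motifs, and Ints1 a pair of ETS matches and 1 GC box.

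Gene models overlap at some of these loci, and no source used here says whether the authors' counting used strand. The RefSeq spans of 19 of the 33 genes overlap another gene, a protein-coding one for 11. The overlapping coding genes with the most reads were Aurka beside Cstf1 (157, 130, 11 and 18 reads, 242 bases shared) and Dtl beside Ints7 (148, 128, 25 and 15 reads, 5 bases shared). Both neighbours fell in the authors' deposited table. Fragments from shared bases could be counted for either gene.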

How the data were processed

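Ribosome-protected fragments of 26 to 34 nucleotides were measured in 4 samples, per the labels' protocols. Trimmomatic 0.39, STAR 2.7.5c, StringTie 2.1.7, DESeq2, edgeR and the build mm10 are named per the submitters' processing notes; the role of each is not given in the sources used here. Per the file headers, the deposited mean is a signal averaged over libraries after scaling by the authors. Fold changes and standard errors are log2 values as deposited, with sign convention and shrinkage not stated. Raw and adjusted p-values were taken as deposited. Of 22396 named genes, 1882 had a mean of 0, 17347 an adjusted p and 3167 reads but none. An unnamed row, with 0.00475% of the summed means, was left out.

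With no column per sample, the authors' comparison replaced a count test. In each mean, 1 read of a library adds a constant amount, so whole reads were solved for. A unique solution (relative tolerance 8e-15) was found for 20512 of 20515 genes with reads (99.985%), the others having several, and for 0 of 500 shifted values. Sides were assigned by the sign that genes found in a single library carry.

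limma 3.58.1 (voom, R 4.3.3) on genes with at least 10 reads was the alternative, with the authors' size factors, TMM, upper-quartile, median-of-ratios factors or library totals, a minimum of 50 or 1 read, A and B summed, and each library left out. Where a side keeps 1 library, that library is assumed to vary like the rest. Intervals are 95% Wilson intervals (statsmodels 0.14.6). All 33 genes found are named, with up to 4 of smallest p per further list. The members and lists were chosen with earlier results of these data known. Python 3.11.15 was used.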

Additional observations from a re-analysis of the deposited data

How the results depend on the processing

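The sides have 2 libraries each, C and D are shallow, A and B may be 1 library, and shares alone are free of scaling. Of the 26 genes that fell, 22 kept direction and call in all 12 limma settings, and Cpsf6, Cpsf7, Casp8ap2 and Ints9 lost the call in at least 1. The count that fell was 22 to 27 over these settings (24 to 27 with 1 library left out) and 23 at an adjusted p of 0.01 in the authors' deposited table. The count that rose was 0 at first, 2 with upper-quartile factors, 2 with library totals and 1 with a minimum of 1 read. Relative to fits on the size factors of the authors, the median of all genes moved by 0.55 with library totals and by 0.46 with upper-quartile factors. A level per coding length was not run, for want of coding lengths.

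The median log2 fold change, -1.37 in the authors' deposited table, was -1.50 with limma on the authors' size factors, -1.54 with TMM, -1.04 with upper-quartile factors, -0.95 with library totals, -1.59 with a minimum of 50 reads and -1.50 with A and B summed, and -1.50 to -1.42 with 1 library left out. These fits drop Nudt21, and at 50 reads also Lsm10 and Lsm11. The median over all genes was 0.35 with the authors' size factors, 0.32 with TMM, 0.82 with upper-quartile factors and 0.91 with library totals. It was -0.72 with a minimum of 50 reads, 0.36 with A and B summed, and -0.0001 to 0.29 with 1 library left out. Signs that turned belong to genes that did not pass: Ints1 (-0.0055 with TMM, and -0.13 to 0.17 with 1 library left out), Lsm10 (0.16 with upper-quartile factors, 0.26 with library totals, and -0.87 to 0.39 with 1 library left out), Ints5 (-0.35 to 0.69 with 1 library left out) and Pabpn1 (-0.15 to 0.43 with 1 library left out). The cause was not tested. No paired analysis was possible because the recovered libraries carry no replicate number.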

Other observations

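Histone genes and genes of small nuclear RNA transcription and export were also read. By the authors' deposited table, 30 of 55 tested histone genes, listed as replication-dependent by symbol alone, fell while 2 rose (median -0.97). Whether SLBP binds the mRNA of each was not tested. The background shares that fell were 18.8% of all tested genes and 61.2% of the class of highest means. The list also holds genes with means below that class, such as H2bc13 (17.5 normalized counts) and H2ac7 (5.29). Of the next class 13.3% fell, and of those below it 0.623% and 0%. The 61.2% is thus no matched background for the whole list, and the histone counts were not split by class. The linker histone H1f1 had 861, 960, 213 and 215 normalized counts in libraries A to D (-2.08 in the authors' deposited table), and H2bc1, a testis histone, 125, 119, 18.7 and 11.8 (-2.89 in the authors' deposited table). H2bc18 (-1.32) and H1f2 (-1.10) followed by p in the authors' deposited table. The 2 that rose, named after their values were seen, were H2bc21 (2.83 in the authors' deposited table) and H4c14 (0.71 in the authors' deposited table). Some histone genes are near-identical copies, so reads may be split between them.

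By the authors' deposited table, 10 of 17 genes of small nuclear RNA transcription and export fell while 1 rose (median -1.32). Of all tested genes 18.8% fell, of the class of highest means 61.2% and of the next class 13.3%. The list holds genes of lower classes too, such as Snapc5 (mean 14.0 normalized counts) and Ell2 (5.57), and was not split by class. Xpo1, the export receptor, had 667, 688, 94.6 and 81.2 normalized counts (-2.92 in the authors' deposited table), and Phax, the adaptor that hands small nuclear RNAs to it, 97.2, 94.0, 24.0 and 10.2 (-2.35 in the authors' deposited table). Snapc1, of the complex that starts their transcription, was at 54.7, 75.0, 12 and 13.5 (-2.22 in the authors' deposited table), and Ice2, of the little elongation complex, at 57.6, 62.2, 9.33 and 23.7 (-1.79 in the authors' deposited table). The 1 that rose, named after its value was seen, was Ice1, the partner of Ice2, with 25.6, 26.2, 70.6 and 57.5 normalized counts (1.25 in the authors' deposited table).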
